A study of Mus musculus with 6 samples.

Results

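Txnip, the thioredoxin-interacting protein gene, was examined with 9 genes of its surroundings in parental CT26.mMR1 cells and their mutant M8. These were the arrestin-domain genes Arrdc1, Arrdc2, Arrdc3 and Arrdc4, the glucose-sensing regulators Mlx, Mlxip and Mlxipl, and the thioredoxins Txn1 and Txn2. The members were taken by symbol, and all 10 were found among the 24346 gene symbols of the tables. The set was selected on measured values of this same contrast, in which Txnip stood out, so the levels and differences of the 10 genes are given as a description, and nothing is read from where they fell in the test over all genes.

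RNA sequencing of poly(A) RNA was carried out on 3 samples of each line. Parental CT26.mMR1 cells are the mouse colorectal tumor line CT26 after retroviral transduction with mouse MR1, the molecule that presents small metabolites to mucosal-associated invariant T cells. M8 was obtained from them with the alkylating mutagen N-ethyl-N-nitrosourea (ENU), so both lines carry the MR1 transgene and no other treatment is given for either. The titles of all 6 samples carry the tag cl9, which the labels do not explain, so whether the parental line is itself a clone is not stated. M8 is 1 clone, picked because it activated a T cell reporter line more strongly and showed more MR1 on its surface. What holds for M8 therefore holds for 1 clone, and effects of the mutagen, of cloning and of passage cannot be told apart.

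Txnip is an alpha-arrestin that binds reduced thioredoxin and takes glucose transporters from the cell surface. Its transcription follows glucose. Mlxip (MondoA) or Mlxipl (ChREBP) forms a pair with Mlx. When glucose 6-phosphate accumulates, the pair binds carbohydrate response elements, in which 2 E-box-like hexamers stand 5 bases apart. The other alpha-arrestins, Arrdc1 to Arrdc4, are adaptors that bring ubiquitin ligases of the Nedd4 family to membrane proteins.

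The Txnip promoter is shown because it holds a pair of hexamers of this form and because Txnip had the largest difference of the 10 genes. The Arrdc4 promoter is shown for comparison, since Arrdc4 is the other classical MondoA target of the family and was listed at 0. Both are RefSeq windows of GRCm38.p6, the assembly also called mm10, from 250 bases before to 50 bases after the start of transcription, written 5′ to 3′ on the gene's strand. Capitals mark matches to CACGAG or CACGTG and to CCAAT, which reads ATTGG where it lies on the other strand. The Txnip window is chr3:96557707-96558006 on the plus strand, and the Arrdc4 window is chr7:68749189-68749488 on the minus strand.
Txnip: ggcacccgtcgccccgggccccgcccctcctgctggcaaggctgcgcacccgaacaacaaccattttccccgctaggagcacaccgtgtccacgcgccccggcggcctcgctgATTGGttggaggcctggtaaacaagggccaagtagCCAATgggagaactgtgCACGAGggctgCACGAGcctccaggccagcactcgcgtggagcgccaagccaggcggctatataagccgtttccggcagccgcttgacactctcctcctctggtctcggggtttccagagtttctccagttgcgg
Arrdc4: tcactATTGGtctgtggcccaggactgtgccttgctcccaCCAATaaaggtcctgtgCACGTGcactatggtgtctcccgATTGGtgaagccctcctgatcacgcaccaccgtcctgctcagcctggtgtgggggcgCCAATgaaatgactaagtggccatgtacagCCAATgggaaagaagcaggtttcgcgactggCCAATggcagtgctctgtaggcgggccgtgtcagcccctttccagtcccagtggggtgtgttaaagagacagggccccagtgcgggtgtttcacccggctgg

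In the Txnip window, CACGAG began 85 bases before the start and again 74 bases before it, in the same orientation and with 5 bases between the copies. A CCAAT box began 102 bases before the start, and a CCAAT box on the other strand lay at 137 bases. The Arrdc4 window held 1 CACGTG, which began 193 bases before the start, and no second CACGNG hexamer at that spacing. These matches are descriptions of letters and not evidence of binding.

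A pair of CACGNG hexamers on the same strand, 5 bases apart and on either strand of the window, was found in 16 of 32851 RefSeq windows of this length (0.0487%). Among the 10 genes, which matched 13 windows, Txnip was the 1 gene with the pair. CACGTG alone, which reads the same on both strands, was found in 7.15% of all windows and in those of 3 of the 10 genes, Arrdc4, Mlx and Mlxipl, where it began 193, 40 and 98 bases before the start. CACGAG on either strand was found in 6.47% of all windows and in those of 4 of the 10 genes, Txnip, Arrdc1, Arrdc2 and Mlxipl. CCAAT on either strand was common, in 37.4% of all windows and in those of 8 of the 10 genes. The searches for CACGAG, for CCAAT and for the pair were chosen after the values had been seen.

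Besides Txnip, 8 genes with the pair were expressed highly enough to be tested, and these are shown to set the Txnip element beside others of its form. Each match is written on the gene's strand with the hexamers in capitals and the spacer in lower case; a pair on the other strand reads CNCGTG.
Txnip: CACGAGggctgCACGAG
Irak1bp1: CACGTGgaaggCCCGTG
Man2b2: CTCGTGccctgCCCGTG
Nfkb2: CACGGGatcgtCACGGG
A430005L14Rik: CACGCGgagagCACGTG
Fem1b: CACGCGcggctCACGGG
Fnip1: CGCGTGacggaCCCGTG
Rbbp4: CACGTGatctgCACGGG
Rbmxl1: CCCGTGtgccgCGCGTG

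Of these 8 genes 3 were higher and 0 lower in M8, beside 21.2% and 16.5% of all genes tested, and with 8 genes nothing is read from these counts. Irak1bp1 was higher in M8 (log2 difference 0.23, standard error 0.062, limma adjusted p = 0.0232), as were Man2b2 (0.10, standard error 0.040, limma adjusted p = 0.0890) and Nfkb2 (0.13, standard error 0.044, limma adjusted p = 0.0617). Irak1bp1 passed in each of 16 refits, while the call of Man2b2 was lost in 12 of them, among them each with 1 sample left out (adjusted p = 0.118 to 0.243), and that of Nfkb2 in 8, among them those without parental replicate 1, M8 replicate 1 or M8 replicate 3 (adjusted p = 0.136 to 0.167). The other 5 did not pass the test, and the median of the 8 was 0.07. No gene of the 8 was lower at an unadjusted p below 0.05 either. A log2 difference is the mean of log2(FPKM + 1) in M8 minus that in parental cells, where FPKM is the fragment count scaled by exon length and by the number of fragments mapped in the library. A gene passed when its adjusted p was below 0.1 in a limma fit over the 10597 genes whose FPKM averaged at least 1.

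In that fit 2250 genes were higher and 1745 lower in M8, so 56.3% of the calls were higher. With FPKM rescaled to TPM they were 1658 and 2209, and with upper-quartile scaling 1726 and 2296 (42.9% higher in each), while the median log2 difference of all genes stayed between -0.03 and 0.01 under every scaling. The M8 samples were less deep, at 0.772 to 0.875 of the first parental sample against 0.948 to 1.07 for the parental samples. Of 10 colon epithelium markers, Epcam, Cdh1, Krt19 and Cdx2 were listed at 0 in all samples although the labels give colon as the tissue, and only Krt18, Krt20 and Lgals4 reached a mean FPKM of 1. The summed FPKM of these markers was 42.0 to 57.9 in parental cells and 48.5 to 50.3 in M8. Fibroblast markers summed to 676 to 720 and 673 to 706, and leukocyte markers to 19.6 to 21.8 and 19.0 to 21.4, with Cd3e and Csf1r at 0 in all samples. Endothelial markers summed to at most 0.0853, with Cdh5 and Emcn at 0 in all samples. Among markers that could be tested, Krt20 and Lgals4 were lower in M8 (log2 differences -0.50 and -0.66), as were Pdgfra (-0.43), Dcn (-0.38) and Cd68 (-0.96), while Pdgfrb (0.25) and Cd14 (0.15) were higher. The part of these markers in the results was not tested.

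Txnip itself was measured at 343.5, 353.7 and 363.6 FPKM in parental replicates 1 to 3 and at 173.1, 179.4 and 204.3 FPKM in M8 replicates 1 to 3. Every M8 sample lay below every parental sample, and the gap between the lines was wider than the spread within either. The mean was 353.6 ± 10.03 FPKM in the parental samples and 185.6 ± 16.5 FPKM in M8 (SD, n = 3 each), a ratio of 0.525. The log2 difference was -0.93 with a standard error of 0.060. In RNA from a bulk culture, fewer cells with the transcript and less transcript per cell cannot be told apart.

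Txnip was among the abundant transcripts of both lines. It ranked 217 to 222 of the 24346 symbols by FPKM in the parental samples and 433 to 516 in M8. Of the 909 genes that averaged at least 100 FPKM, Txnip alone was as low in M8 relative to parental cells. Of the 8547 that averaged at least 5 FPKM, 10 were as low, Txnip included. Over the 10597 genes tested, 16 had a log2 difference as low as that of Txnip or lower, Txnip included, and the 5th and 95th percentiles of all genes were -0.32 and 0.31. Txnip was chosen because it stood out in this contrast, so its place among all genes is a description and nothing is read from it. The plot of difference against level shows this place.

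**Figure D1:**
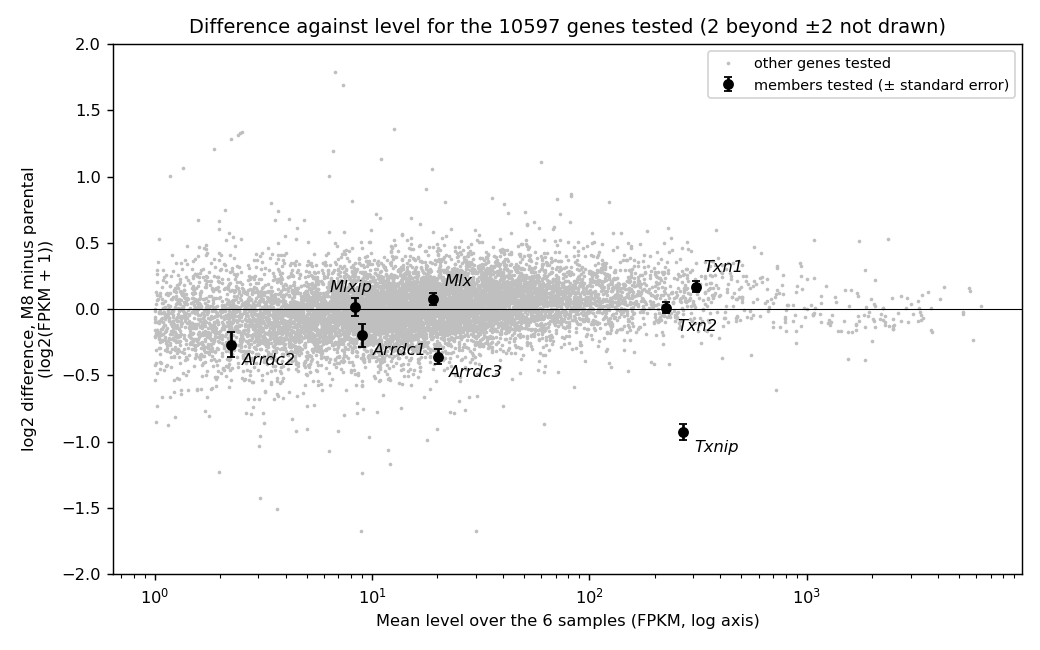
The log2 difference between the lines (M8 minus parental, on log2(FPKM + 1)) is plotted against the mean FPKM over the 6 samples on a log axis, for the 10597 genes tested (grey) and the 8 members among them (black, ± standard error). Txnip lies at -0.93 with a mean above 100 FPKM, where no other gene is as low, while Txn1 and Txn2 at like abundance lie at 0.17 and 0.01. Txnip was chosen because it stood out in this contrast.

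The Txnip gene lies on chr3:96557957-96561857 on the plus strand (GRCm38.p6). In GENCODE M21 the antisense RNA gene Gm15441 runs over it on the opposite strand and shares 606 of its 3123 exon bases (19.4%). Gm15441 was measured at 0.594, 0.939 and 0.655 FPKM in the parental samples and 0.463, 0.3498 and 0.3513 FPKM in M8. Its values correspond to 22, 33 and 26 reads in parental cells and 15, 10 and 11 in M8, all within 0.0053 of a whole number. The M8 samples were all below the parental ones for this gene as well. The libraries mark strand, but whether the counting used it is not stated, so reads of Txnip and of Gm15441 in the shared exons cannot be told apart. At under 1 FPKM, Gm15441 was far below Txnip in every sample.

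Of the arrestin-domain genes, Arrdc3 was the most abundant. It lies on chr13:80883384-80896042 on the plus strand, and its product brings Nedd4 family ligases to beta-adrenergic receptors and other membrane proteins. Its level was 21.6, 23.7 and 23.1 FPKM in the parental samples and 16.5, 17.8 and 18.3 FPKM in M8. The lines did not overlap, with a mean of 22.8 ± 1.06 FPKM against 17.5 ± 0.9195 FPKM (SD, n = 3 each), a ratio of 0.770. The log2 difference was -0.36 with a standard error of 0.056.

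Arrdc2, on chr8:70835129-70839720 on the minus strand, was low in both lines. It was measured at 2.52, 2.64 and 2.45 FPKM in the parental samples and 2.18, 1.97 and 1.67 FPKM in M8. Its M8 samples were all below its parental samples, but the lowest parental and the highest M8 value were close. The mean was 2.54 ± 0.0929 FPKM against 1.94 ± 0.259 FPKM, a ratio of 0.764 and a log2 difference of -0.27 with a standard error of 0.095. The spread in M8 was wider than that in parental cells, with a coefficient of variation of 13.4% against 3.67%.

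Arrdc1, on chr2:24925352-24935335 on the minus strand, encodes the member of the family that recruits Tsg101 and drives budding of small vesicles from the plasma membrane. It was measured at 10.7, 8.67 and 9.57 FPKM in the parental samples and 7.49, 9.06 and 8.30 FPKM in M8. The lines overlapped, since M8 replicate 2 was above parental replicate 2. The mean was 9.65 ± 1.03 FPKM against 8.28 ± 0.784 FPKM, with a log2 difference of -0.20 and a standard error of 0.086. With 1 sample left out the difference ran from -0.266 to -0.127.

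Arrdc4, on chr7:68736994-68749238 on the minus strand, was listed at 0 in all 6 samples. In total 8254 symbols (33.9%) were at 0 in all samples. Of the symbols of cytosolic ribosomal protein genes, Rpl10l alone was among them, a copy known mainly from testis. No fold is given for Arrdc4.

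The plot of levels by sample sets the 10 genes side by side. Of the alpha-arrestin genes, Txnip and Arrdc3 show the clearest separation between the lines, Arrdc2 a narrower one, and Arrdc1 none. Txn1, Mlx and Mlxipl, described below, were also without overlap, while Mlxip and Txn2 overlapped.

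**Figure D2:**
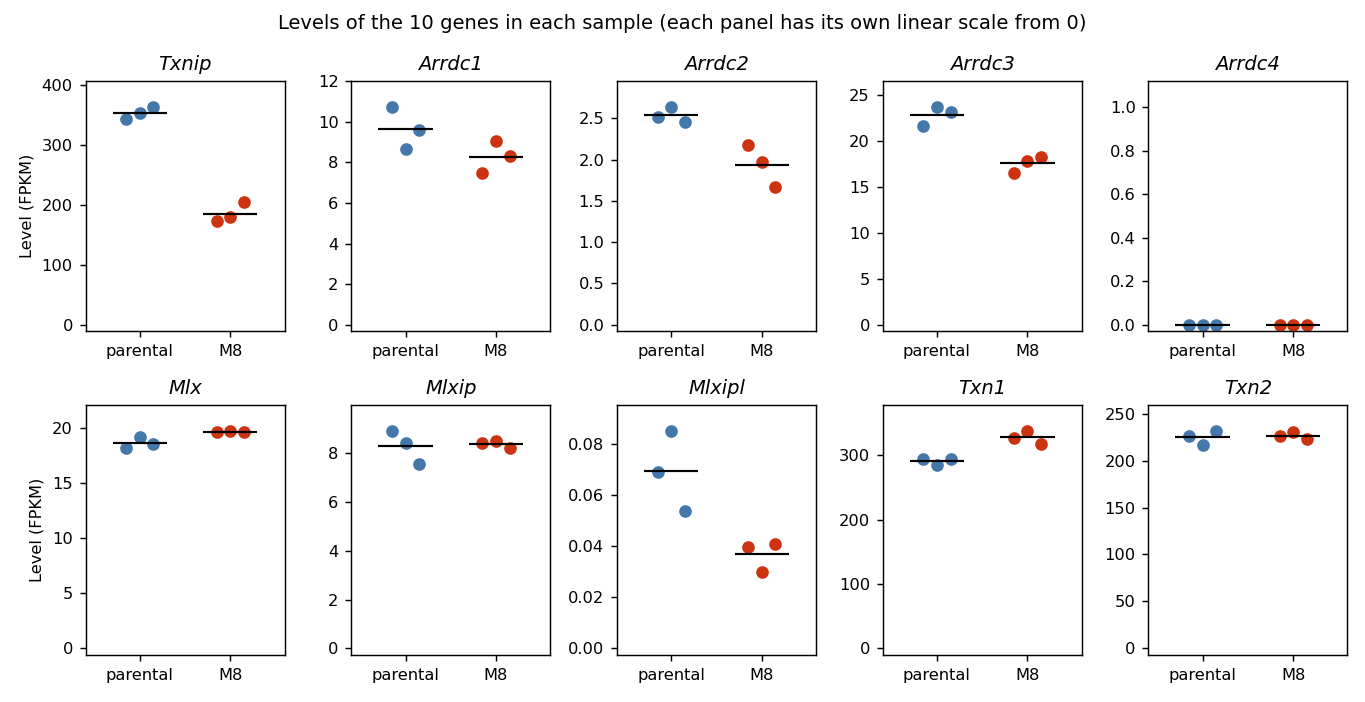
The level of each of the 10 genes is plotted in FPKM on a linear axis from 0 with its own scale per panel, with 1 point per sample (3 parental, 3 M8) and a line at the mean of each line's samples. Txnip lies between 343.5 and 363.6 FPKM in the parental samples and between 173.1 and 204.3 FPKM in M8, Txn1 is higher in M8, and Arrdc4 is at 0 in every sample.

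Mlx is the common partner of the MondoA and ChREBP proteins. The gene lies on chr11:101086707-101092207 on the plus strand and was measured at 18.2, 19.2 and 18.5 FPKM in the parental samples and 19.6, 19.7 and 19.7 FPKM in M8. The M8 samples were all slightly above the parental ones. The mean was 18.6 ± 0.506 FPKM against 19.7 ± 0.0590 FPKM, a ratio of 1.06 and a log2 difference of 0.08 with a standard error of 0.044. Mlx shares 385 of 1999 exon bases (19.3%) with Psmc3ip on the opposite strand, so part of its reads could belong to that gene.

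Mlxip, which encodes MondoA, was expressed in both lines at overlapping levels. The gene lies on chr5:123394521-123457932 on the plus strand and was measured at 8.90, 8.38 and 7.54 FPKM in the parental samples and 8.39, 8.50 and 8.21 FPKM in M8. The M8 samples lay inside the parental range. The mean was 8.27 ± 0.687 FPKM against 8.37 ± 0.148 FPKM, with a log2 difference of 0.02 and a standard error of 0.066. Under TPM and upper-quartile scaling the sign turned, with log2 differences of -0.0173 and -0.0164, and without parental replicate 3 it was -0.0416.

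Mlxipl, which encodes ChREBP, the form best known from liver and fat, was close to absent. The gene lies on chr5:135089890-135139768 on the plus strand and was measured at 0.0691, 0.0850 and 0.0537 FPKM in the parental samples and 0.0395, 0.0299 and 0.0409 FPKM in M8. These values correspond to 6, 7 and 5 reads in parental cells and 3, 2 and 3 reads in M8, all within 0.00015 of a whole number. The M8 samples were below the parental ones, on 8 reads against 18 in all and at the lower depth of M8. At so few reads no test was made, and Mlxip was above Mlxipl in every sample.

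The FPKM of Mlx was 2.26 ± 0.209 times that of Mlxip in parental cells and 2.35 ± 0.0399 times in M8 (SD, n = 3 each). This ratio overlapped between the lines, at 2.04 to 2.46 in parental cells and 2.32 to 2.40 in M8.

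Txn1, the cytosolic thioredoxin to which Txnip binds, was higher in M8. The gene lies on chr4:57943373-57956411 on the minus strand and was measured at 294.6, 284.5 and 294.6 FPKM in the parental samples and 327.4, 337.8 and 317.8 FPKM in M8. Every M8 sample was above every parental sample. The mean was 291.2 ± 5.85 FPKM against 327.6 ± 9.99 FPKM, a level higher by 12.5%, with a log2 difference of 0.17 and a standard error of 0.039. Under quantile normalization the difference was 0.07.

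Txn2, the mitochondrial thioredoxin, overlapped between the lines. The gene lies on chr15:77915051-77928994 on the minus strand and was measured at 226.5, 216.2 and 231.7 FPKM in the parental samples and 226.3, 230.2 and 222.5 FPKM in M8. The M8 samples lay inside the parental range. The mean was 224.8 ± 7.86 FPKM against 226.3 ± 3.87 FPKM, with a log2 difference of 0.01 and a standard error of 0.040. The sign turned under TPM (-0.0269), upper-quartile scaling (-0.0266) and quantile normalization (-0.0735), and also without parental replicate 2 (-0.0175) or M8 replicate 2 (-0.00215).

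With Txnip lower and Txn1 higher, the ratio of their FPKM values differed between the lines more than either gene alone. Txnip was 1.17, 1.24 and 1.23 times Txn1 in parental cells and 0.529, 0.531 and 0.643 times Txn1 in M8. The lines did not overlap, and Txnip stood above Txn1 in each parental sample and below it in each M8 sample. The ratio of Txn1 to Txn2 was 1.30 ± 0.0223 in parental cells and 1.45 ± 0.0194 in M8 (SD, n = 3 each), also without overlap. The ratio of Txnip to Arrdc3 was 15.5 ± 0.508 in the parental samples and 10.6 ± 0.566 in those of M8.

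FPKM corrects for transcript length but not for other differences between genes, so the order of levels is approximate. In parental cells the order from high to low was Txnip, Txn1, Txn2, Arrdc3, Mlx, Arrdc1, Mlxip, Arrdc2, Mlxipl and Arrdc4. In M8 it was Txn1, Txn2, Txnip, Mlx, Arrdc3, Mlxip, Arrdc1, Arrdc2, Mlxipl and Arrdc4. Arrdc1 and Mlxip were the 1 pair of neighbours in either order whose samples overlapped. Txnip moved from above both thioredoxins to below both, and Mlx, part of whose reads could belong to Psmc3ip, moved above Arrdc3.

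Of the 10 genes, 8 had a mean FPKM of at least 1 and entered the fit. Past the threshold, 1 was higher in M8 (Txn1), beside 21.2% of all genes tested, and 3 were lower (Txnip, Arrdc2 and Arrdc3), beside 16.5%. For 5 of the 8 the lines did not overlap, beside 45.2% of all genes tested. With quantile normalization the calls of Txn1 and Arrdc2 were lost (0 higher, 2 lower). The call of Arrdc2 was made in 10 of 18 alternatives, and it was also lost without a filter and without parental replicate 2, M8 replicate 2 or M8 replicate 3. Arrdc1 was called in 4 of the 18, among them TPM and upper-quartile scaling (1 higher, 4 lower). Since the genes were chosen with this contrast known, nothing is read from these counts. Their median log2 difference was -0.09, beside 0.01 for all genes.

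To describe the rest of the pathway, 6 lists of other genes were read from the same fit. They held 127 genes in the tables, of which 97 were tested, and 20 (20.6%) were higher and 15 (15.5%) lower in M8. These shares lie near those of all genes, and the median of the 97 was -0.02. The balance turned with the scaling, to 14 higher and 22 lower with TPM or upper-quartile scaling and 15 and 21 with quantile normalization. Without M8 replicate 1 the counts were 10 and 9, and without M8 replicate 3 the higher count was 13. Up to 3 genes with the largest differences among those past the threshold in each list are named below with their limma adjusted p-values. With no filter on low values, which adjusts over all 24346 symbols, the calls of Elovl6, Hmga2, Slc2a6, Pgls, Txnrd2, Wwp1, Tsg101, Mxi1, Mxd3 and Prkab2 were lost (adjusted p = 0.102 to 0.346).

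The first list held genes linked to the carbohydrate response of Mlx and its partners. Of 27, 19 were tested, 3 were higher and 2 lower, with a median of 0.02. Klf10, a transcription repressor and a classical ChREBP target, was lower, at 30.0 ± 3.09 FPKM in the parental samples and 20.8 ± 1.39 FPKM in M8 (log2 difference -0.51, adjusted p = 0.00192). Elovl6, an elongase of long-chain fatty acids, was higher at 4.70 ± 0.242 and 5.83 ± 0.479 FPKM (0.26, adjusted p = 0.0294), and so was Hmga2, a chromatin protein, at 58.6 ± 3.73 and 68.5 ± 4.99 FPKM (0.22, adjusted p = 0.0281). Both calls were lost without M8 replicate 1, with adjusted p = 0.111 and 0.104. Other lipogenic genes of the list had values on both sides of 0. Fasn, the fatty acid synthase, had a log2 difference of 0.18 (adjusted p = 0.152), Scd1, the stearoyl desaturase, one of -0.09 (adjusted p = 0.113) and Acly, the ATP citrate lyase, one of -0.07 (adjusted p = 0.193). Me1 and Mid1ip1 also passed the threshold, Me1 lower (-0.18, adjusted p = 0.0197) and Mid1ip1 higher (0.13, adjusted p = 0.0536). Without a filter 0 genes of the list were higher, so the call of Mid1ip1 was lost. Fasn, Scd1, Acly, Me1 and Mid1ip1 were named after their values had been seen. With TPM 5 genes of the list were lower, with upper-quartile scaling 6, and leaving out each sample in turn gave 1 to 4 higher and 2 to 4 lower.

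The second list held glucose transporters, hexokinases and the first steps beyond them. Of 27, 18 were tested, with 3 higher, 3 lower and a median of -0.03. Slc2a8, an intracellular hexose transporter, was lower, at 6.59 ± 0.0488 and 4.68 ± 0.333 FPKM (log2 difference -0.42, adjusted p = 0.00236). Slc2a6, a transporter of the same class, was higher, at 3.83 ± 0.422 and 4.77 ± 0.285 FPKM (0.26, adjusted p = 0.0487). Pgls of the pentose phosphate pathway was higher, at 119.7 ± 9.31 and 140.4 ± 5.60 FPKM (0.23, adjusted p = 0.0168). With 1 sample left out the list gave 1 to 4 higher and 1 to 4 lower, and quantile normalization gave 5 lower. The call of Slc2a6 was lost without parental replicate 3, M8 replicate 1 or M8 replicate 3, with adjusted p = 0.119, 0.155 and 0.105. Slc2a1, the most abundant transporter of the list and a cargo of Txnip, varied from 54.1 to 84.4 FPKM among the parental samples and from 67.8 to 76.1 FPKM in M8, and it was named after its values had been seen.

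The third list held other genes of the thioredoxin system. Of 33, 29 were tested, with 6 higher, 3 lower and a median of -0.02. Glrx5, a mitochondrial glutaredoxin of iron-sulfur cluster assembly, was higher, at 44.1 ± 2.85 and 61.3 ± 4.02 FPKM (log2 difference 0.47, adjusted p = 0.00103). Txnrd2, the mitochondrial thioredoxin reductase, was higher, at 7.53 ± 0.777 and 9.86 ± 1.40 FPKM (0.34, adjusted p = 0.0312), a call lost without M8 replicate 1 (adjusted p = 0.119). Txndc16 was lower, at 6.13 ± 0.141 and 4.76 ± 0.434 FPKM (-0.31, adjusted p = 0.0131). Txnrd1, which reduces Txn1 in the cytosol, was at 96.4 ± 4.33 and 94.5 ± 1.74 FPKM (-0.03, adjusted p = 0.676) and was named after its values had been seen. Leaving out each sample in turn gave 3 to 5 higher and 2 to 4 lower, and TPM or upper-quartile scaling gave 5 lower. Quantile normalization turned the balance, to 4 higher and 6 lower.

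The fourth list held other proteins of the arrestin fold and the ubiquitin ligases and sorting proteins that work with them. Of 19, 14 were tested, with 4 higher, 4 lower and a median of -0.01. Smurf1, a Nedd4 family ligase, was higher, at 37.2 ± 0.790 and 45.9 ± 0.915 FPKM (log2 difference 0.30, adjusted p = 0.00127). Wwp1, a ligase of the same family that binds alpha-arrestins, was lower, at 9.996 ± 0.176 and 8.25 ± 0.673 FPKM (-0.25, adjusted p = 0.0182). Tsg101, the sorting protein that Arrdc1 recruits, was lower, at 74.1 ± 5.98 and 62.3 ± 0.826 FPKM (-0.24, adjusted p = 0.0120). Leaving out each sample in turn gave 1 to 3 higher and 2 to 4 lower, and TPM, upper-quartile scaling or quantile normalization gave 2 higher.

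The fifth list held the wider Max and Mlx network. Of 10 genes 8 were tested, with 2 higher, 1 lower and a median of 0.05, and leaving out 1 sample gave 1 to 2 higher and 0 to 1 lower. Max, the partner of Myc, was higher, at 22.8 ± 0.614 and 30.3 ± 1.22 FPKM (log2 difference 0.39, adjusted p = 0.000739). Mxd3, which pairs with Max, was higher at 19.5 ± 1.59 and 22.7 ± 2.11 FPKM (0.21, adjusted p = 0.0681), and Mxi1 was lower at 14.2 ± 1.71 and 11.5 ± 0.661 FPKM (-0.27, adjusted p = 0.0370). The call of Mxd3 was lost without parental replicate 1 or 3 or M8 replicate 1 or 2 (adjusted p = 0.155, 0.168, 0.233 and 0.156) and with TPM or upper-quartile scaling (0.114 and 0.109), and it just missed the threshold with no eBayes trend. The call of Mxi1 was lost without parental replicate 2 or 3 or M8 replicate 1 (0.122, 0.102 and 0.135).

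The last list held AMPK and Akt, the kinases that phosphorylate Txnip protein. Of 11, 9 were tested, with 2 higher, 2 lower and a median of -0.06, and without 1 sample at a time, and over the scalings, 1 to 3 were lower. Akt1 was higher, at 162.7 ± 4.14 and 197.1 ± 7.90 FPKM (log2 difference 0.27, adjusted p = 0.00218). Prkab2, a regulatory subunit of AMPK, was lower at 4.39 ± 0.220 and 3.41 ± 0.594 FPKM (-0.30, adjusted p = 0.0554), a call lost without parental replicate 2 or 3 or M8 replicate 1 (adjusted p = 0.109, 0.131 and 0.162) and with quantile normalization (0.139). No gene of the 6 lists had a difference as large as that of Txnip.

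**Figure D3:**
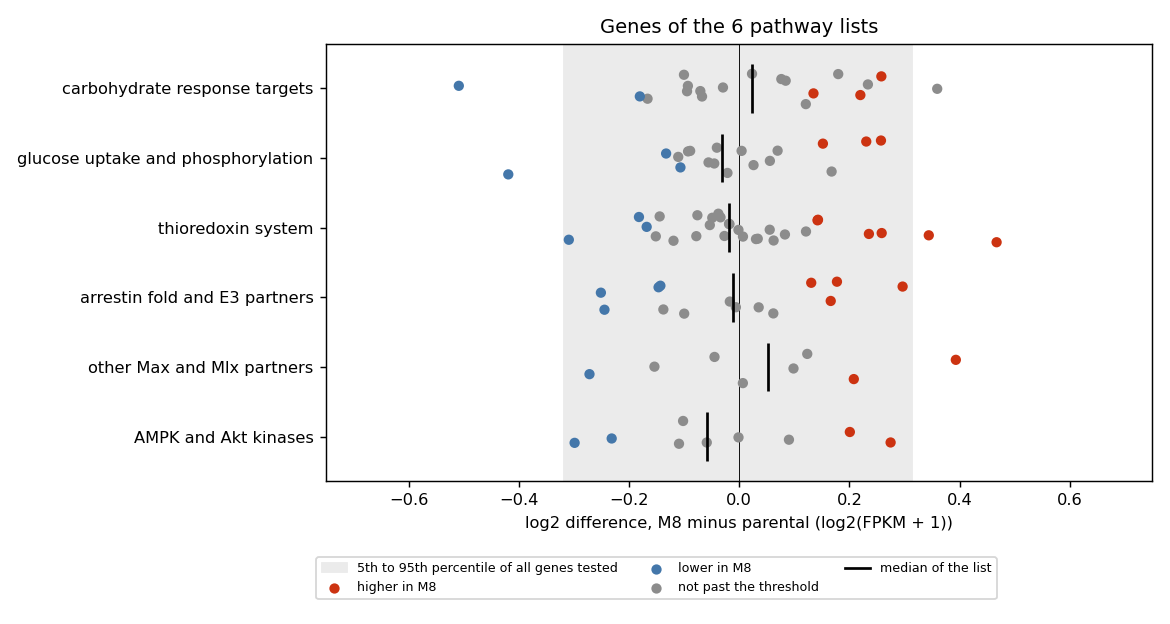
Each point is 1 tested gene of the 6 lists, placed by its log2 difference (M8 minus parental, on log2(FPKM + 1)) and colored by whether it was higher (red), lower (blue) or not past an adjusted p below 0.1 (grey). Black bars mark list medians, which lie between -0.06 and 0.05, and the grey band runs from the 5th to the 95th percentile of all genes tested, -0.32 to 0.31.

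The genes beside Txnip were examined next, a window of 250 kb on each side that was chosen after the values had been seen. It held 14 other coding genes, of which 13 were in the tables and 7 were tested. Polr3gl, the nearest tested gene, encodes an alternative subunit of RNA polymerase III and was lower in M8. It was measured at 14.0, 13.3 and 14.2 FPKM in the parental samples and 8.98, 9.61 and 10.1 FPKM in M8, without overlap (log2 difference -0.49, standard error 0.057, limma adjusted p = 0.000672). Polr3gl lies on chr3:96577872-96594181 on the minus strand, 16.0 kb beyond the end of Txnip, with its start 36.2 kb from that of Txnip.

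Of the tested genes beyond Polr3gl none passed, and Lix1l, Rbm8a, Pias3, Polr3c and Rnf115 had log2 differences from -0.11 to 0.09. Of the 7 tested, 1 was lower, beside 16.5% of all genes tested, and 0 were higher, beside 21.2%. With 7 genes nothing is read from these counts. None of the 7 was higher at an unadjusted p below 0.05 either. Neighbours under a mean of 1 FPKM were not tested. Among these, Ankrd35 was measured at 0.351, 0.457 and 0.317 FPKM in parental samples and 0.189, 0.240 and 0.220 FPKM in M8, without overlap, and Ankrd34a at 0.267, 0.123 and 0.186 FPKM against 0.133, 0.0648 and 0.0197 FPKM, with overlap. Both lie beyond Polr3gl. The plot of neighbours by distance shows tested genes only.

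**Figure D4:**
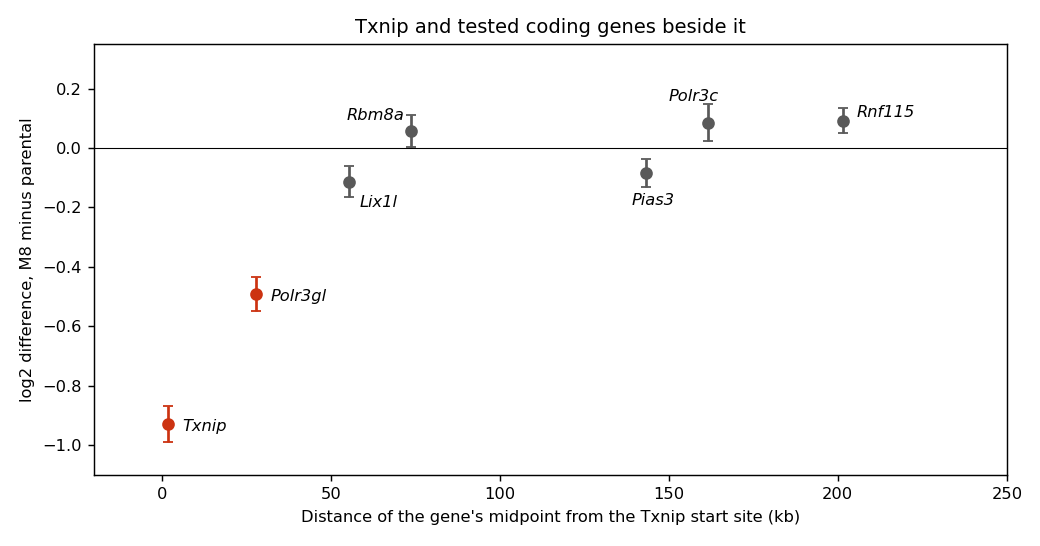
The log2 difference (M8 minus parental, on log2(FPKM + 1), ± standard error) is plotted for Txnip and for tested coding genes within 250 kb that the text names, by the distance in kb of the gene's midpoint from the start of Txnip. Txnip and Polr3gl (red) lie at -0.93 and -0.49, and the other 5 genes (grey), none past an adjusted p below 0.1, lie between -0.11 and 0.09.

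The genes whose pattern over the 6 samples was most like that of Txnip were sought by Pearson's r of log2(FPKM + 1) among 257 genes that averaged at least 5 FPKM and had a spread of 0.5 to 2 times that of Txnip. Nicn1 (r = 0.995), Bcl2l11 (0.993), which encodes the cell death protein Bim, the lysosomal amidase gene Naaa (0.993), Polr3gl (0.991) and the water channel gene Aqp1 (0.991) came first. The most opposite were Foxm1 (-0.998), a transcription factor of dividing cells, Cenpa (-0.998), the centromeric histone, and Lsm4 (-0.997), an RNA-binding protein of splicing. With 3 samples in each of 2 lines, r follows the difference between the lines, so these values carry no test. With TPM 3 of the 5 most like genes were the same.

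The like genes differed from Txnip in level. Naaa was measured at 10.54, 10.42 and 11.4 FPKM in the parental samples and 5.56, 6.35 and 6.77 FPKM in M8 (log2 difference -0.71), and Aqp1 at 7.93, 9.48 and 9.34 FPKM and 3.67, 3.32 and 4.13 FPKM (-1.07). As their choice by r largely fixed, the 5 genes most like Txnip were lower in each M8 sample than in any parental sample. Their log2 differences ran from -1.07 to -0.49, and those of the 3 opposite genes from 0.49 to 0.51.

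**Figure D5:**
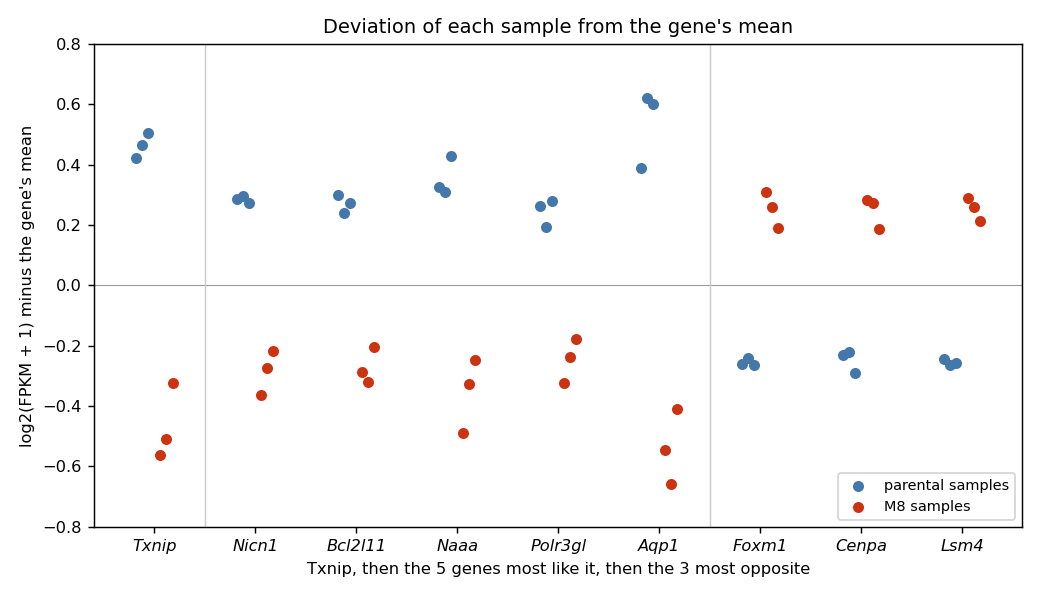
For Txnip, the 5 genes most like it and the 3 most opposite, the log2(FPKM + 1) of each sample is plotted as its deviation from the gene's mean, with 1 point per sample (blue, parental; red, M8). The parental samples lie above the M8 samples for Txnip and the first 5 genes, which have r of 0.991 to 0.995, and below them for Foxm1, Cenpa and Lsm4, which have r of -0.998 to -0.997.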

How the data were processed

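Libraries were made by the authors with a TruSeq stranded mRNA kit from 3 RNA samples of each line and read as single reads. Reads were mapped to mm10 with TopHat, and FPKM values were calculated with Cufflinks 2.2.1. The submitters' processing notes list TopHat2 2.1.1, Bowtie2 2.2.8, SAMtools 0.1.18 and Cuffdiff 2.2.1. The gene annotation is not given in the sources used here. The deposited FPKM values are normalized by the authors for mapped fragments and transcript length. The authors' own test used read counts, which were not used here.

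The study calls its replicates biological, while the labels only number them, so p-values measure the spread between these samples. Differences were fitted with limma 3.58.1 in R 4.3.3 (lmFit, eBayes with a trend) on log2(FPKM + 1), a scale that understates the change of low genes, for genes that averaged at least 1 FPKM, with Benjamini-Hochberg adjustment over all of them and a threshold of 0.1. The fit was tested on simulated data. Where reads are given, they were recovered from the steps of low FPKM values; of 2018 weak genes, 1789 (88.7%) gave whole reads within 0.1 of a read, up to 40 reads. Relative depth comes from the same steps. The depth in reads is otherwise unknown, so no counting intervals are given.

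The 10 members and all lists were chosen with earlier results of these data known. Named genes were the 10 members, up to 3 genes past the threshold with the largest difference in each of 6 lists, and the 5 genes most like and 3 most unlike Txnip, predicted genes left out; other genes are said to have been named after their values were seen. Some genes that this covers are not reported here. The fit was repeated with a pseudocount of 0.1 or 0.5, without a filter or with a mean of at least 5 FPKM, on TPM, with median centring, upper-quartile scaling or quantile normalization, with no eBayes trend, at an adjusted p below 0.05, at a minimum fold of 1.5, with a replicate block and with each sample left out. Promoters and positions are from RefSeq GRCm38.p6, for which all 10 genes matched by symbol, and exon overlaps from GENCODE M21. Python 3.11.15 with pandas 2.3.3 and matplotlib 3.10.9 served for tables and plots.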

Additional observations from a re-analysis of the deposited data

How the results depend on the processing

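As a description, the log2 difference of Txnip was -1.06 after quantile normalization and from -1.0 to -0.881 with 1 sample left out. Over the same samples left out, the median of the 8 members tested ran from -0.134 to -0.0554. Without a filter 1284 genes were higher and 898 lower, with a fold of at least 1.5 42 and 74, and with 1 sample left out 1591 to 2100 and 1142 to 1681, the lowest counts without M8 replicate 1. Of the 6 lists, 14 genes were higher and 22 lower with TPM or upper-quartile scaling, 15 and 21 after quantile normalization, 7 and 8 without a filter, 12 and 9 at an adjusted p below 0.05, and 10 to 18 and 9 to 20 with 1 sample left out. With a fold of at least 1.5 both list counts were 0, while limma gave 21 and 18 at an unadjusted p below 0.05 with any fold. Among single members, Arrdc2 was at -0.378 with a pseudocount of 0.1, Mlx at 0.0418 with TPM and 0.0413 with upper-quartile scaling, and Txn1 at 0.0699 and Txn2 at -0.0735 after quantile normalization. With a replicate block, 2171 genes were higher and 1688 lower, 21 and 13 of the lists, and Txnip stayed at -0.93. The numbers do not pair the samples: same-numbered samples had correlations of deviations of 0.10, -0.11 and -0.03. The causes of these shifts were not tested. The depth limits Mlxipl and Gm15441, and small differences such as those of Mlx, Mlxip and Txn2 could not be resolved from the spread of 3 samples a line.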

Other observations

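The chromosomal surroundings of Arrdc4 were examined because it was listed at 0, a choice made after the values had been seen. Within 1.5 Mb, all coding genes with values lay at lower coordinates than Arrdc4, and several of them were expressed in both lines. Mef2a, a MADS-box transcription factor, was at 27.2 ± 1.11 FPKM in the parental samples and 24.6 ± 0.229 FPKM in M8 (SD, n = 3 each). Ttc23 was at 17.2 ± 0.332 and 15.2 ± 1.01 FPKM. Igf1r, the receptor of insulin-like growth factor 1, was at 8.76 ± 0.422 and 8.37 ± 0.310 FPKM, and Lrrc28 was at 6.45 ± 0.681 and 5.41 ± 0.438 FPKM. Synm was at 0.112 ± 0.0314 and 0.0462 ± 0.0451 FPKM, and Pgpep1l was listed at 0 in all samples. Fam169b, the nearest to Arrdc4, ends at chr7:68363089. It was at 0.01004 ± 0.008745 FPKM in the parental samples and at 0 in M8. Pgpep1l came next, and Igf1r, which ends at chr7:68233668, was the nearest expressed gene. What these levels mean for the 0 of Arrdc4 was not tested.

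Promoter windows were also compared with the differences of the genes that own them, members left out and as a description. Of 997 tested genes with CACGTG in the window, 26.7% were higher and 13.8% lower in M8, with a median log2 difference of 0.03. Of 819 with CACGAG, 25.5% were higher and 14.5% lower, with a median of 0.03. Of 3562 with CCAAT, 21.3% were higher and 15.9% lower, with a median of 0.01. Over all 10597 genes tested, 21.2% were higher and 16.5% lower. Base composition and abundance of the genes in these groups were not matched, and their part was not tested.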
